A study of Mus musculus with 6 samples.

Results

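Smooth muscle contractile genes encode the actin and myosin filaments of smooth muscle and of myofibroblasts, and the proteins that bind and anchor those filaments. They were followed here in cultured mouse lung fibroblasts treated with DKK1. The group holds 10 genes, Acta2, Actg2, Tagln, Myh11, Cnn1, Myl9, Lmod1, Smtn, Des and Synpo2, of the 45706 genes in the deposited table, and was chosen by the function of the encoded proteins, with earlier results of these data known. All 10 passed the filter on low counts that left 14635 genes for testing. The samples were 3 labelled control and 3 that received recombinant mouse DKK1 (30 ng/ml, 24 hours). The cells are described as wild-type, and all came from mouse lungs digested with collagenase and trypsin, and were cultured in medium with serum for 7 days before the cells were detached. The strain, sex and age of the mice, the number of animals and any vehicle given to the control cells are not given in the sources used here. Nothing in the labels says whether replicates came from separate animals or cultures, so the p-values measure the spread between these samples, which may be technical.

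Contraction in smooth muscle is switched on by calcium, which activates myosin light chain kinase. The kinase phosphorylates the regulatory light chain, and myosin then pulls on filaments of smooth muscle actin. Fibroblasts that become myofibroblasts make many of the same proteins, alpha-smooth muscle actin above all. Most of these genes are driven by serum response factor (SRF), which binds CArG boxes and works with myocardin or myocardin-related factors. DKK1 is a secreted inhibitor of Wnt signalling that binds the co-receptors LRP5 and LRP6.

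The promoter windows of the genes are shown first, because SRF sites are the best known control element that these genes share. RefSeq windows of 300 bases (build GRCm38.p6, 250 bases before to 50 after a gene's start) were matched for 7 of the 10 genes, and Actg2, Tagln and Myh11 had no entry. A CArG box was read as CC, then 6 bases that are A or T, then GG, which is the same on both strands. A CArG-like box was allowed at most 1 G or C among the 6. A CArG box was found in 1.63% of the 32851 windows in the RefSeq table and in 1 of the 7, that of Myl9. CArG-like boxes, which include CArG boxes, were found in 9.98% of all windows and in 2 of the 7, those of Acta2 and Myl9. The Myl9 window is printed to the base before the first annotated exon, at chr2:156775214-156775419 on the plus strand, with its boxes in capitals. They lie 161 and 99 bases before the RefSeq start, and the second is CArG-like only.
Myl9: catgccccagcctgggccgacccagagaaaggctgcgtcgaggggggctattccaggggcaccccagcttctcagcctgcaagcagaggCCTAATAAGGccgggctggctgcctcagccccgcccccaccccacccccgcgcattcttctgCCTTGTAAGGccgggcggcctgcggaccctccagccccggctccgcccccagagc

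The Acta2 window lies on the minus strand of chromosome 19, and 267 of its 300 bases fall in an exon of the GENCODE annotation, which starts Acta2 further upstream than RefSeq does. Only the 30 bases around each of its CArG-like boxes are therefore printed. The first box lies 84 bases before the RefSeq start, at chr19:34255448-34255457, and the second 34 bases before it, at chr19:34255398-34255407. Capitals mark the boxes.
Acta2 box at 84: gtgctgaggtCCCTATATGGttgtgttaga
Acta2 box at 34: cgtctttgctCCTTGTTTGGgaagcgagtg

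The window of Des held no such box. Des had the largest fall of the 10 in the paired fit (log2 fold change -0.45), but unpaired and without control replicate 1 its value was -0.12, beside -0.30 for Myh11 and -0.28 for Actg2. The window is shown for comparison, up to the base before its first annotated exon, at chr1:75360042-75360328 on the plus strand.
Des: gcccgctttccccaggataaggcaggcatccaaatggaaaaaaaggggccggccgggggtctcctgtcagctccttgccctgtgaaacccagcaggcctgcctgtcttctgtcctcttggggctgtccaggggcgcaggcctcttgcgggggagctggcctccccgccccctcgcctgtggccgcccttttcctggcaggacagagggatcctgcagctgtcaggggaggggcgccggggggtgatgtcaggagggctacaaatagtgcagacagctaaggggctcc

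Other motifs were searched on both strands in the same windows. The core of TEAD sites, CATTCC, was present in the windows of Acta2, Lmod1 and Smtn, 3 of 7, against 14.7% of all windows. The letters CTTTGA, part of the site of the Wnt-responsive TCF and LEF factors, were present in 0 of 7 against 16.0% of all windows. These matches describe letters in a short window, and a window without them says nothing of sites elsewhere.

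Library totals ranged from 22565917 to 34727102 counts. At these depths the contractile genes were well covered: the lowest single value among them was 175 counts (Synpo2) and the highest 171785 (Acta2). Levels are given as CPM, a count divided by the sum over all genes of its library. The mitochondrial share of counts was 1.49% to 1.55% in control and 1.63% to 1.70% in DKK1 libraries. The part of that share in the results was not tested. The same comparison was fitted without the replicate number (unpaired, the planned design) and with it as a block (paired), both with edgeR's quasi-likelihood test and Benjamini-Hochberg adjustment over all tested genes. Calls needed an adjusted p under 0.05. The paired fit was an alternative, given because same-numbered samples deviated together in these same data. What the replicate numbers stand for is not stated. The words "fell" and "rose" are used of genes called in the paired fit, and do not mean a call in the planned unpaired fit.

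Fibroblast markers had the highest summed level of the 8 marker lists read. All 10 fibroblast markers were above the floor of 3 counts in at least 1 library. They summed to 15349 to 16898 CPM in control and 14115 to 15874 CPM in DKK1 libraries. Most of that sum came from Col1a1, Fn1, Col1a2 and Col3a1, with control means of 5940, 5023, 2958 and 1393 CPM. The control means of the other fibroblast markers ranged from 552 (Pdgfra) down to 2.12 (Lum) and 1.23 CPM (Dpt). Of 10 markers of airway and vascular smooth muscle, 9 were above the floor, summing to 717 to 849 CPM in control and 674 to 779 CPM with DKK1. Npnt made up most of that sum, with means of 542 CPM in control and 543 CPM after DKK1. Of the 8 tested smooth muscle markers 3 fell (Itga8, Map3k7cl and Kcnmb1) and 0 rose in the paired fit, and the unpaired fit called Itga8 and Map3k7cl lower. Among all tested genes 4.46% were called lower and 4.96% higher in the paired fit, and 0.198% lower in the unpaired fit. Of the tested smooth muscle markers that were not called, Hhip and Ntrk3 had log2 values of 0.30 and 0.04 (edgeR paired adjusted p = 0.0772 and 0.962), and those of Lgr6, Npnt and Rgs5 were below 0. Map3k7cl, named after its values were seen, changed by -0.49 on the log2 scale (edgeR adjusted p = 0.0183 unpaired and 0.000254 paired). With 1 sample left out its unpaired call held only without DKK1 replicate 3 (edgeR adjusted p = 0.0441) or control replicate 3 (0.0262), and the others gave 0.0682 to 0.0958. Phospholamban (Pln), a calcium pump regulator that marks vascular smooth muscle, did not exceed 3 counts in any library. Pericyte markers summed to 116 to 153 CPM in control and 106 to 135 CPM with DKK1, with 8 of 9 above the floor and Higd1b at or under it. In the paired fit 2 of the 8 tested pericyte markers fell and 1 rose, and the unpaired fit called 0. Kcnmb1 and Itga8 are also in the related lists described further on. The part of these cells in the results was not tested. In bulk RNA, fewer cells of a contractile type and less contractile RNA per cell cannot be told apart.

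Contractile genes stood at very different levels in control cells, as the plot of levels per length shows. CPM were divided by the mean length of each gene's listed transcripts to compare genes. On this scale Acta2, which encodes alpha-smooth muscle actin, led with 2915 ± 209 CPM per kilobase (SD, n = 3). Tagln (transgelin, an actin-binding protein) followed at 1543 ± 96.9 and Myl9 (the regulatory light chain of smooth muscle myosin) at 1401 ± 98.4 CPM per kilobase, and the control values of this neighbouring pair overlapped. Below them came Actg2 at 645 ± 25.6, Cnn1 at 236 ± 9.75 and Smtn at 129 ± 6.34 CPM per kilobase, each with a range apart from its neighbours. Myh11 at 51.3 ± 0.305, Des at 47.6 ± 17.5 and Lmod1 at 43.1 ± 1.89 CPM per kilobase were not separable in this order, because the range of Des spanned those of the others. Synpo2 was last at 1.61 ± 0.207 CPM per kilobase, 26.8 times below Lmod1. With the longest transcript in place of the mean length, Lmod1 and Des changed places and all other positions were the same. On that scale the control ranges of all neighbours were apart, those of Tagln and Myl9 and of Myh11, Lmod1 and Des included.

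**Figure D1:**
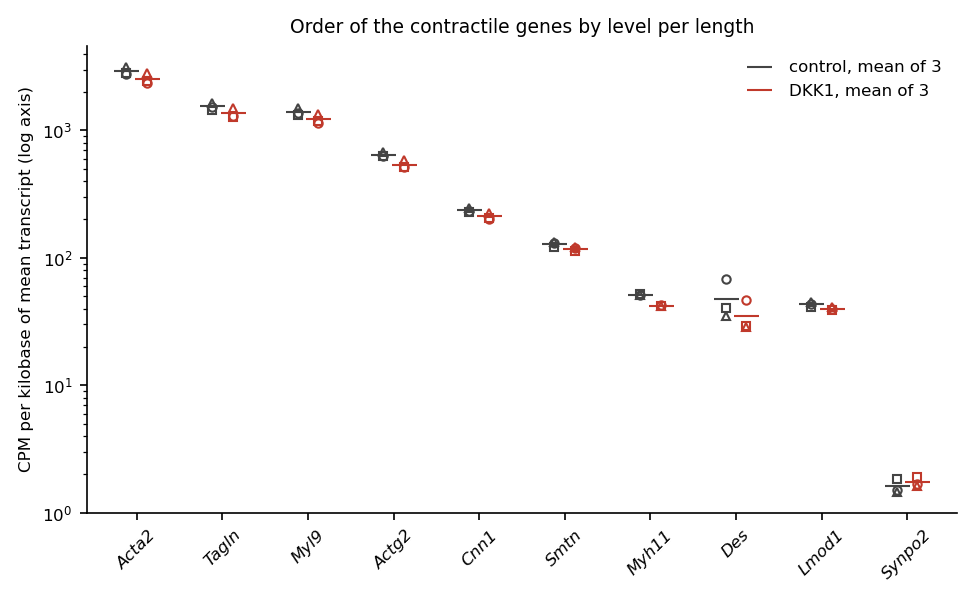
Level of the 10 contractile genes per kilobase of mean transcript length (log axis, CPM per kilobase) in 3 control (grey) and 3 DKK1 (red) libraries; open symbols are libraries (circle, square and triangle for replicates 1, 2 and 3) and short lines are group means. Acta2 stood highest at 2915 and Synpo2 lowest at 1.61 CPM per kilobase in control.

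After DKK1, 9 of the 10 contractile genes fell in the paired fit, by 7.83% (Lmod1) to 27.0% (Des), and 0 rose. Again, 4.46% of all tested genes were called lower and 4.96% higher in that fit. Synpo2 was the exception, with a value 7.31% higher that was not called. The unpaired fit called 1 of the 10, Myh11, lower, against 0.198% of all tested genes called lower and 0.895% called in either direction. In the unpaired fit 8 of the 10 had an unadjusted p under 0.05, against 10.6% of all tested genes. The same 9 genes were lower in each of the 3 same-numbered pairs, which was true of 19.6% of all tested genes. The groups did not overlap, with DKK1 below control, for Actg2, Myh11 and Cnn1, 3 of the 10, against 7.14% of all tested genes. The median log2 fold change of the 10 was -0.20 in both fits, beside -0.00091 over all tested genes in the unpaired fit and -0.00063 in the paired fit. Each change was under 2-fold.

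**Figure D2:**
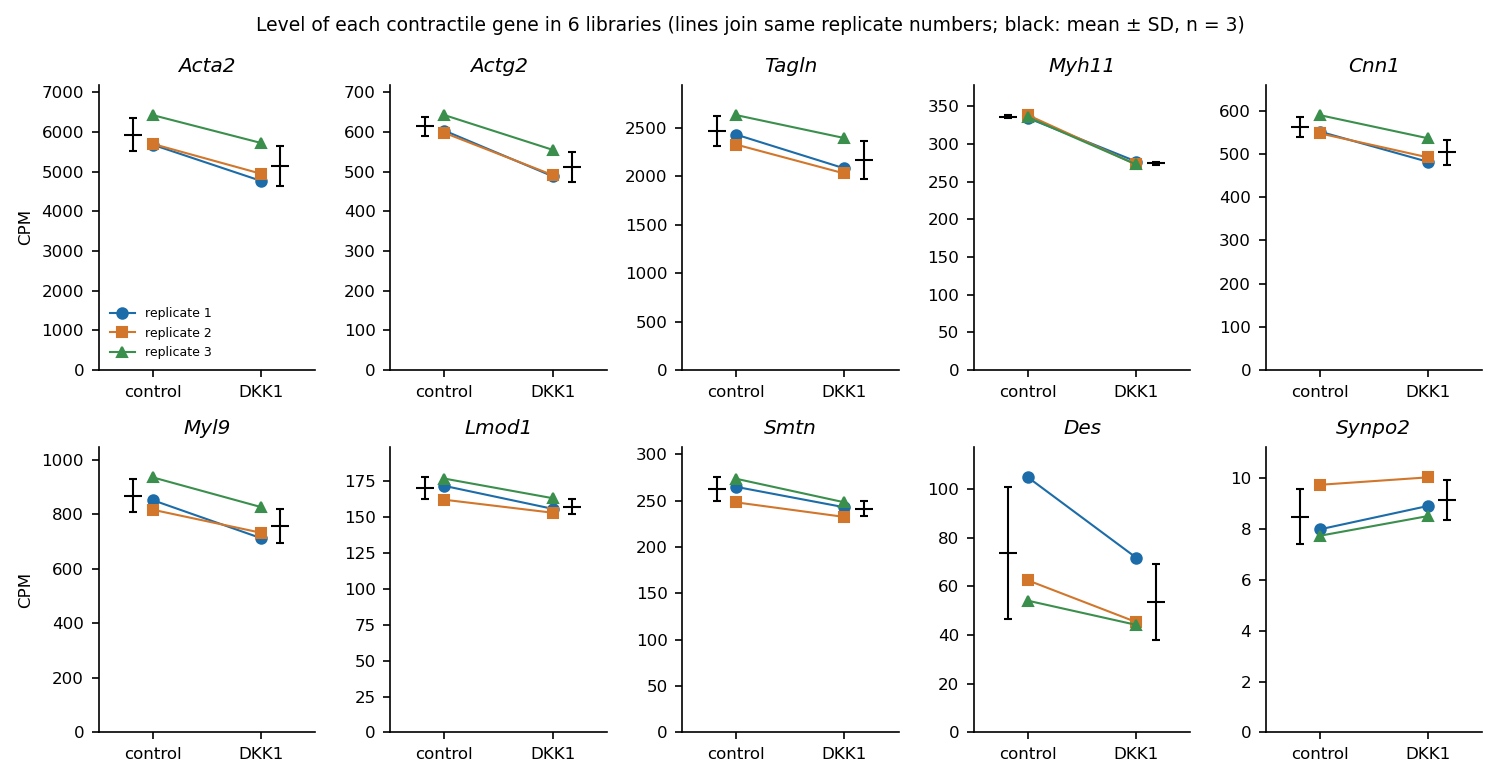
CPM of each contractile gene (linear axes from 0) in control and DKK1 libraries; each line joins the libraries of 1 replicate number, and black marks give mean ± SD (n = 3). The lines of 9 genes slope down in all 3 pairs and those of Synpo2 slope up, while for Des the replicates lie further apart than the groups.

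Both smooth muscle actins fell. Acta2 (ENSMUSG00000035783, chr19:34241090-34255590, minus strand, GRCm38 as for all gene positions) measured 5677, 5698 and 6423 CPM in control replicates 1, 2 and 3 and 4767, 4947 and 5721 CPM in the DKK1 replicates. Replicate 3 was the highest library of each group, and DKK1 replicate 3 lay just above the 2 lower control libraries, so the groups overlapped. Acta2 fell by 13.7% (log2 fold change -0.21, paired SE 0.02, adjusted p = 4.16e-06 by edgeR with the block, and 0.2998 without it). Its log2 differences were -0.25, -0.20 and -0.17 in pairs 1, 2 and 3. Actg2 (ENSMUSG00000059430, chr6:83512905-83536265, minus strand), the gamma-smooth muscle (enteric) actin, stood at 604, 598 and 643 CPM in control and 489, 492 and 555 CPM after DKK1. Every DKK1 library was below every control library. Actg2 fell by 17.2% (log2 fold change -0.27, SE 0.02, edgeR paired adjusted p = 2.89e-06). It missed the threshold narrowly in the unpaired edgeR fit (adjusted p = 0.0634). With 1 sample left out, Actg2 was called unpaired only without DKK1 replicate 3 (edgeR adjusted p = 0.0127), and the others gave 0.158 to 0.230.

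The cytoplasmic actins, named here after their values were seen, give a reference within the same family. Actb had a log2 fold change of -0.03 (edgeR paired adjusted p = 0.401) and Actg1 one of -0.01 (0.784), whose sign changed in 3 of 19 alternatives, and neither was called. Per kilobase of longest transcript, Acta2 made up 31.5% of the summed level of the 6 actin genes in control and 29.0% in DKK1 cells, Actb 36.6% and 38.1%, and Actg1 26.8% and 28.3%. Actg2 made up 4.98% and 4.40%. Expected counts of Acta2, Actb and Actg1 were not whole in any library, so some of their reads were shared with other features, which the table does not name. The deposited table lists 1 transcript of Acta2, and GENCODE M21 holds more. Over all of these, only 7 of 2146 distinct 50-base stretches of Acta2 also occur in transcripts of another gene, those of Actg1 and pseudogenes among them.

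Tagln, Cnn1, Smtn and Lmod1 encode proteins that bind the thin filament. Tagln (ENSMUSG00000032085, chr9:45929619-45936058, minus strand) measured 2428, 2325 and 2629 CPM in control and 2079, 2027 and 2392 CPM after DKK1. Only DKK1 replicate 3 reached into the control range. Tagln fell by 12.4% (log2 fold change -0.19, SE 0.02, edgeR adjusted p = 2.04e-05 paired and 0.311 unpaired). Its exons overlap transcripts annotated on the opposite strand. They do so over 1157 of the 1983 distinct 50-base stretches of its GENCODE M21 transcripts. Those include transcripts other than the 1 that the deposited table lists. The strandedness of the counting is not given in the sources used here. All expected counts of Tagln were whole. Nearly all of the 1157 stretches lie in Gm48529, which was not found by name among the deposited genes. How many Tagln reads could come from Gm48529 was not tested, and whole counts do not show it. The few other stretches lie in Pcsk7, which held 811 to 1316 counts and was not called (edgeR paired adjusted p = 0.25).

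Cnn1 (ENSMUSG00000001349, chr9:22099216-22109630, plus strand) encodes calponin 1, which binds actin and restrains myosin. It was measured at 551, 547 and 589 CPM in control and 482, 492 and 536 CPM in DKK1 libraries, with no overlap. Cnn1 fell by 10.96% (log2 fold change -0.17, SE 0.02, edgeR adjusted p = 8.37e-05 paired and 0.203 unpaired). Smtn (ENSMUSG00000020439, chr11:3517523-3540612, minus strand), the gene of smoothelin, had 265, 248 and 274 CPM in control and 243, 233 and 248 CPM after DKK1, and DKK1 replicate 3 reached the level of control replicate 2. Smtn fell by 8.28% (log2 fold change -0.12, SE 0.02, edgeR adjusted p = 0.00197 paired and 0.2995 unpaired). All 6 libraries gave it fractional expected counts, and 441 of its 4663 distinct 50-base stretches are shared with an antisense transcript, Gm11946, which held at most 29.9 counts.

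Lmod1 (ENSMUSG00000048096, chr1:135324807-135368065, plus strand) encodes leiomodin 1, which starts new actin filaments in smooth muscle. Control libraries held 172, 162 and 177 CPM and DKK1 libraries 156, 153 and 163 CPM, with DKK1 replicate 3 just above control replicate 2. Lmod1 fell least of the called genes, by 7.83% (log2 fold change -0.12, SE 0.02, edgeR adjusted p = 0.00744 paired and 0.312 unpaired). It lost the paired call without replicate 2 (edgeR adjusted p = 0.0590) and under DESeq2 with the block (adjusted p = 0.134).

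Both myosin genes of the list fell. Myh11 (ENSMUSG00000018830, chr16:14194535-14291372, minus strand), the smooth muscle myosin heavy chain, measured 335, 338 and 336 CPM in control and 277, 273 and 273 CPM in DKK1 cells. The groups were far apart relative to their spread, which was 0.593% of the mean in control and 0.829% in DKK1 libraries. That spread was below the 1.10% that counting error alone gives for a count of this size in control, which limits how far an SD over 3 libraries can be read. Myh11 fell by 18.7% (log2 fold change -0.30, SE 0.02, edgeR adjusted p = 8.21e-07 paired). It was the only contractile gene called in the unpaired edgeR fit (adjusted p = 0.00387), and it kept the call in each of the 6 unpaired fits that left out 1 sample. Myl9 (ENSMUSG00000067818, chr2:156775420-156781658, plus strand) stood at 852, 817 and 935 CPM in control and 713, 732 and 827 CPM after DKK1, overlapping through DKK1 replicate 3. Myl9 fell by 13.1% (log2 fold change -0.20, SE 0.02, edgeR adjusted p = 2.98e-05 paired and 0.270 unpaired).

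Des (ENSMUSG00000026208, chr1:75360329-75368579, plus strand) encodes desmin, the intermediate filament protein of muscle, and varied most between replicates. Control replicates 1, 2 and 3 held 105, 62.5 and 54.1 CPM, and the DKK1 replicates 71.8, 45.4 and 44.2 CPM. Replicate 1 was the highest in each group, and DKK1 replicate 1 exceeded control replicates 2 and 3. The SD was 36.8% of the mean in control and 29.0% in DKK1 cells, the largest of the 10 genes. Its log2 differences were -0.55, -0.46 and -0.29 in pairs 1, 2 and 3. It fell by 27.0% in the paired fit (log2 fold change -0.45, SE 0.04, edgeR adjusted p = 1.64e-05) and was not called in the unpaired fit (SE 0.26, adjusted p = 0.624). Unpaired, its log2 fold change moved between -0.12 without control replicate 1 and -0.72 without DKK1 replicate 1, and between -0.39 and -0.51 in paired fits that each left out 1 pair.

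Synpo2 (ENSMUSG00000050315, chr3:123076519-123236149, minus strand) encodes synaptopodin 2, an actin-bundling protein of muscle. It had 7.98, 9.73 and 7.73 CPM in control and 8.90, 10.0 and 8.50 CPM with DKK1, and the groups overlapped. Each DKK1 value was above that of its pair, yet the difference was not called (log2 fold change 0.10, SE 0.09, edgeR adjusted p = 0.566 paired and 0.841 unpaired). With 1 sample left out its unpaired log2 fold change moved between 0.02 without DKK1 replicate 2 and 0.22 without control replicate 2. It had the fewest counts of the 10, 175 to 348 per library.

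**Figure D3:**
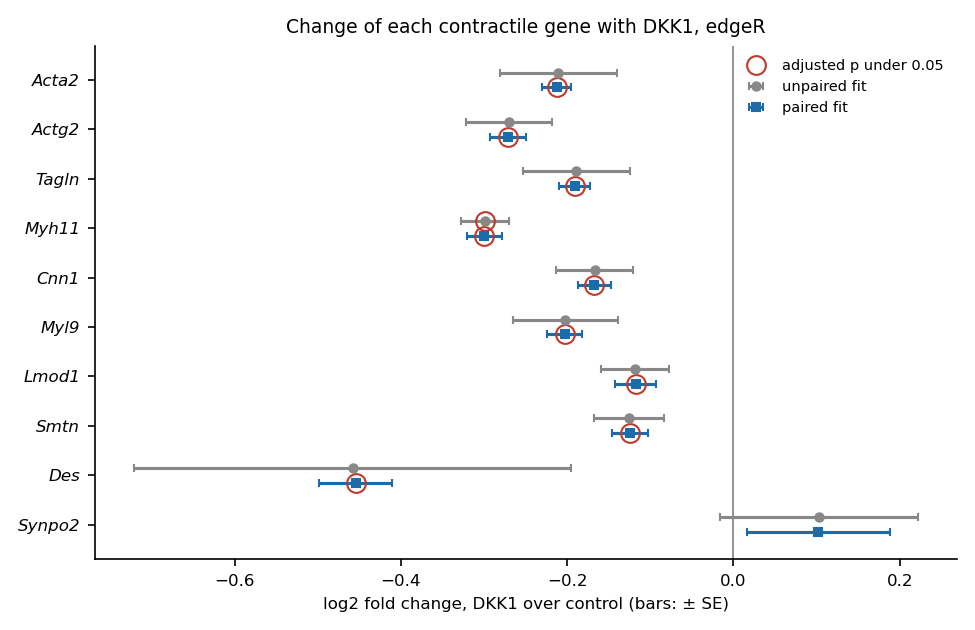
Log2 fold change (DKK1 over control) of each contractile gene with its SE in the unpaired (grey) and paired (blue) edgeR fits; red rings mark an adjusted p under 0.05. Point estimates of the fits lie close together, from -0.45 for Des to 0.10 for Synpo2 in the paired fit, while the bars are shorter in the paired fit for each gene, by most for Des (SE 0.26 against 0.04).

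Replicates shared a pattern across the genes. In 7 of the 10 (Acta2, Actg2, Tagln, Cnn1, Myl9, Lmod1 and Smtn) replicate 3 was the highest library of both groups. Des was highest in replicate 1 of both groups and Synpo2 in replicate 2 of both. Myh11 showed no such order. How many of all tested genes had such an order was not counted. Across all tested genes the deviations of same-numbered samples also went together, with a correlation of 0.38 for replicate 3, 0.26 for replicate 1 and 0.21 for replicate 2. Of the 9 genes that fell, 5 (Acta2, Actg2, Tagln, Cnn1 and Des) had their smallest log2 difference in pair 3. Together the 10 genes took 1.10%, 1.08% and 1.21% of the counts in control replicates 1, 2 and 3 and 0.929%, 0.940% and 1.08% in the DKK1 replicates. Without Acta2 these shares were 0.532%, 0.511% and 0.564% in control and 0.452%, 0.446% and 0.505% with DKK1.

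Other genes of the contractile machinery were read from 5 lists with 79 genes, of which 74 were tested. In the paired fit 28 fell and 4 rose, against 4.46% and 4.96% of all tested genes. The same shares apply to the paired count of each list below. The unpaired fit called 2, Itga8 and Myh10, both lower, against 0.198% of all tested genes called lower and 0.895% in either direction. The median log2 fold change of the 74 tested genes was -0.09 in both fits. The lists were written with earlier results of these data known, so their counts are descriptions.

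Among genes of myosin and its light chain control, 8 of 15 tested fell and 0 rose (median log2 fold change -0.09, paired). Myh10, the non-muscle myosin heavy chain IIB, measured 664, 725 and 664 CPM in control and 558, 592 and 547 CPM after DKK1, without overlap. Its log2 fold change was -0.28 (edgeR adjusted p = 0.0439 unpaired and 6.29e-07 paired). The unpaired call was lost in each of the 6 fits that left out 1 sample (adjusted p 0.0583 to 0.181) and with the GC and length trend removed (0.112). Myl12b, a regulatory light chain, and Mylk, the light chain kinase, fell by 0.19 and 0.16 on the log2 scale (edgeR paired adjusted p = 0.00283 and 5.68e-05). Myl12b was not called by DESeq2 with the block (adjusted p = 0.117).

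The list of dense body, adhesion and intermediate filament genes held 11 that fell of 19 tested and 0 that rose (median -0.13, paired). Itga8, the integrin alpha 8 chain of smooth muscle and myofibroblasts, stood at 204, 178 and 175 CPM in control and 147, 133 and 139 CPM after DKK1, without overlap. Its log2 fold change was -0.42 (edgeR adjusted p = 0.0278 unpaired and 9.75e-07 paired). Among the unpaired fits that left out 1 sample, the call held only without control replicate 3 (adjusted p = 0.0260), and the others gave 0.0507 to 0.113. Csrp1, a LIM protein of smooth muscle, fell by 0.20 on the log2 scale (edgeR paired adjusted p = 6.09e-06). Synpo, the relative of Synpo2 in the actin cytoskeleton, fell by 0.18 (edgeR paired adjusted p = 0.000311).

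Among thin filament relatives 2 of 14 tested fell and 1 rose, with a paired median of -0.03. Tpm2, the beta-tropomyosin gene, fell by 0.17 on the log2 scale (edgeR paired adjusted p = 0.00013). Cnn2 fell by 0.10 (edgeR paired adjusted p = 0.00413, and 0.0875 without replicate 2). Tagln2 rose by 0.07 (edgeR paired adjusted p = 0.0375), a call that was lost whichever pair was left out (adjusted p 0.0510 to 0.321).

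Among genes of the SRF and myocardin axis 4 of 13 tested fell and 2 rose (median -0.06, paired). Srf, the gene of the factor itself, measured 175 ± 9.93 CPM in control and 174 ± 9.47 CPM after DKK1 (SD, n = 3 each), a log2 difference of -0.01 whose sign changed in 6 of 19 alternatives (edgeR paired adjusted p = 0.882). Mrtfa and Mrtfb, the SRF partners that respond to actin, had values of -0.07 and -0.06 that were not called (edgeR paired adjusted p = 0.0844 and 0.464). Myocd, the gene of myocardin, was scarce at 3.01, 1.98 and 2.69 CPM in control and 1.95, 1.21 and 1.73 CPM with DKK1, from 40 to 68 counts a library. It fell by 0.66 on the log2 scale in the paired edgeR fit (SE 0.18, adjusted p = 0.0400), was not called unpaired (0.371), and lost the paired call whichever pair was left out (0.108 to 0.194) and under DESeq2 with the block (0.634). Klf4, a repressor of smooth muscle genes, fell by 0.18 (edgeR paired adjusted p = 0.0101, and 0.0615 without replicate 3 and 0.19 under DESeq2 with the block). Tead1 fell by 0.10 (edgeR paired adjusted p = 0.00869, and 0.163 without replicate 2 and 0.0679 without replicate 3). Smad3, a mediator of TGF-beta signals, and Prrx1, a mesenchymal transcription factor, rose by 0.20 each (edgeR paired adjusted p = 0.000182 and 2.87e-05).

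Of 17 calcium handling and receptor genes 13 were tested, 3 fell and 1 rose (median -0.10, paired). The genes that fell were Tbxa2r (the thromboxane receptor, log2 fold change -0.46), Prkg1 (cGMP-dependent kinase, -0.31) and Kcnmb1 (the beta 1 subunit of a calcium-activated potassium channel of smooth muscle, -0.28). Their edgeR paired adjusted p-values were 0.0128, 0.00196 and 0.00926. Each lost the call without replicate 2 (0.169, 0.0751 and 0.0934) and under DESeq2 with the block (0.385, 0.0818 and 0.316), and Tbxa2r also without replicate 3 (0.0675). Atp2a2, the calcium pump of the sarcoplasmic reticulum, rose by 0.08 (edgeR paired adjusted p = 0.0175, and 0.0672 without replicate 1, 0.108 without replicate 2 and 0.0924 under DESeq2 with the block).

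**Figure D4:**
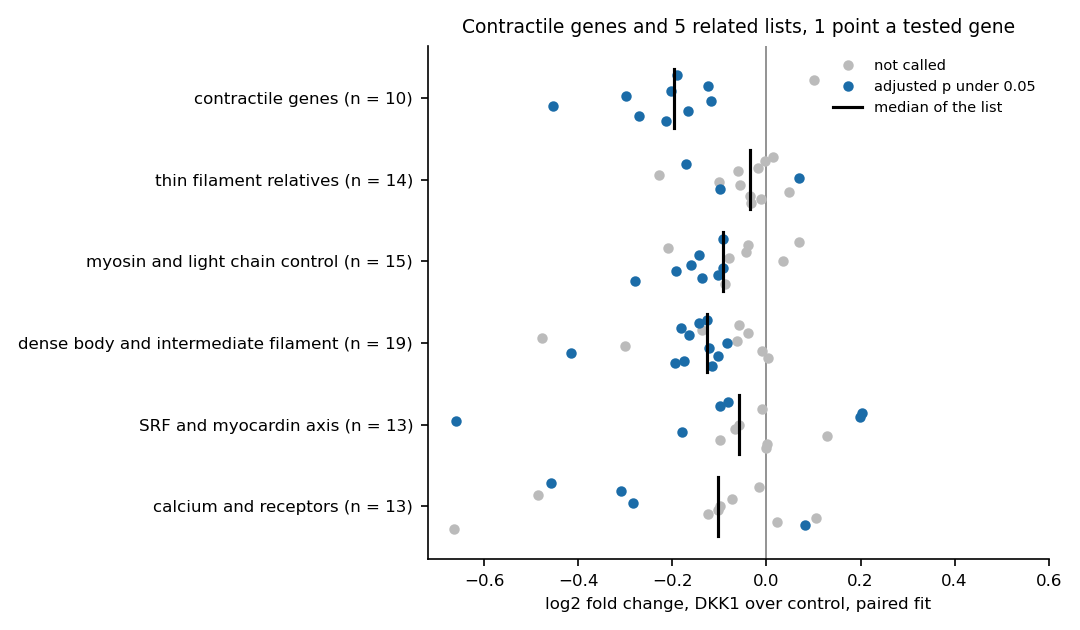
Paired log2 fold change (DKK1 over control) of the tested genes in the contractile list and the 5 related lists, 1 point a gene; blue points have an adjusted p under 0.05 and black bars are list medians. Contractile genes have a median of -0.20, beside -0.13 for dense body and intermediate filament genes and -0.03 for thin filament relatives.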

How the data were processed

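RNA sequencing values of 3 control and 3 DKK1-treated samples came from 1 table of RSEM expected counts per gene, deposited unscaled. The tools STAR, RSEM and edgeR 4.2.1 and the builds GRCm38 and mm10 are named, without their roles, per the submitters' processing notes, and annotation release, strandedness and filters are not given in the sources used here. Of 45706 Ensembl identifiers 45143 matched a symbol. Lengths, GC content and overlaps came from GENCODE M21 (GRCm38).

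Expected counts were rounded, filtered with filterByExpr (minimum count 10), scaled by TMM and tested two-sided in R 4.3.3 with edgeR 4.0.16 (glmQLFit, glmQLFTest) and DESeq2 1.42.0. SEs are the absolute log2 fold change over the root of F. Percent changes come from the fitted fold change. Same-numbered samples correlated in their deviations from group means at 0.21 to 0.38 across genes in each of the 3 pairs. Control and DKK1 samples with different numbers correlated at -0.27 to 0.07. These values, taken from the same data, are why paired fits are given. The replicate numbers come from the sample titles, which do not say what the numbers stand for. The floor of 3 counts was 0.0864 to 0.133 CPM and covers counting error only. The fitting functions were tested on simulated data.

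Genes named are the 10 members, in each related list those called unpaired and up to 3 per direction with the largest paired change among those called, and Srf, Myocd, Mrtfa and Mrtfb. Outside this rule, and after their values were seen, Actb, Actg1 and the cell type markers were named. Members and lists were chosen with earlier results of these data known. Alternatives were DESeq2 size factors, library totals, no low-count filter, removal of GC and length trends (splines with 5 degrees of freedom), DESeq2, the block, a 2-fold minimum and leaving out each sample. Added after seeing the data were the block with other scalings and with each pair left out.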

Additional observations from a re-analysis of the deposited data

How the results depend on the processing

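Each of the 10 contractile genes kept its direction in all 19 alternatives run for it. Myh11 was called in all 19 and Synpo2 in 0. The number of genes called, 131 (102 higher, 29 lower) without the block, became 1379 with the replicate block (726 higher, 653 lower), 1317 with both the block and removal of GC and length trends, 1381 with the block and DESeq2 size factors, 1374 with the block and library totals, 329 without a low-count filter, 289 under DESeq2, 558 under DESeq2 with the block and 21 at 2-fold or more. Leaving out 1 sample gave 36 to 139, and leaving out 1 pair with the block gave 612 without replicate 2, 1060 without replicate 3 and 1312 without replicate 1. These counts do not share 1 denominator. Without the low-count filter and in both DESeq2 fits 23883 genes were fitted, and 14635 in the other fits with all samples. Fits that left out a sample or a pair covered 14586 to 14983 genes. Contractile genes called numbered 1 in the unpaired fit, 2 without the low-count filter or with the GC and length trend removed (Actg2 joined), 3 under DESeq2, 8 under DESeq2 with the block and 9 in the 4 edgeR fits with the block and all samples. They numbered 1 to 2 with 1 sample left out and 8 to 9 with 1 pair left out. With a 2-fold minimum added, the unpaired edgeR fit called 0. The same fit with no fold minimum gave 8 an unadjusted p under 0.05. In the 5 related lists 2 genes were called unpaired, 32 with the block, 34 with both the block and removal of GC and length trends, 33 with the block and DESeq2 size factors, 32 with the block and library totals, 1 with the trend removed unpaired, 7 under DESeq2 and 20 under DESeq2 with the block. They numbered 0 to 1 with 1 sample left out and 17 without the pair of replicate 2, 26 without that of replicate 3 and 32 without that of replicate 1. The causes of these differences were not tested. DESeq2 size factors and library totals moved the median of all genes by under 0.01.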

Other observations

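Markers of striated muscle were detected at a low summed level. Of 14 markers, 10 exceeded 3 counts in at least 1 library, Myh6 and Mb were listed at 0 in each library, and the list summed to 39.5 to 46.5 CPM in control and 30.4 to 39.8 CPM after DKK1. Most of that was Acta1, skeletal muscle actin, named after its values were seen, with a mean of 29.9 CPM in control libraries and one of 23.7 CPM after DKK1 (log2 fold change -0.34, edgeR adjusted p = 0.000333 paired and 0.310 unpaired). All 6 libraries gave it fractional expected counts. Myh1, a skeletal myosin heavy chain at 12 to 60 counts, fell by 1.07 (edgeR adjusted p = 0.0106 paired and 0.365 unpaired), and the other 2 tested striated markers were not called.

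Markers of other lung cells were also present. Leukocyte markers summed to 413 to 834 CPM in control and 464 to 886 CPM with DKK1, mostly Lyz2, with 8 of 10 above the floor and Cd3e listed at 0. Epithelial markers summed to 41.9 to 129 CPM in control and 39.2 to 129 CPM after DKK1, with 8 of 9 above the floor. Endothelial markers (8 of 8 above the floor) gave 27.0 to 73.5 and 24.8 to 74.3 CPM, and mesothelial markers (6 of 6) 25.7 to 60.1 and 26.3 to 61.7 CPM. Among these 4 lists paired calls fell only on leukocyte markers, and the unpaired fit called 0 genes of the 4 lists.

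Of the 8 tested leukocyte markers 3 rose and 2 fell in the paired fit. Marco, Itgam and Adgre1, found on macrophages, rose by 1.67, 1.07 and 0.54 on the log2 scale (edgeR adjusted p = 2.52e-07, 7.23e-08 and 0.00179 paired, and 0.116, 0.136 and 0.665 unpaired). Mrc1 and Csf1r, also macrophage genes, fell by 0.45 and 0.25 (edgeR adjusted p = 0.000384 and 0.0364 paired, and 0.667 and 0.756 unpaired).

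Fibroblast and pericyte markers moved in both directions. Of 10 fibroblast markers Pdgfra and Dcn rose by 0.27 and 0.62 on the log2 scale (edgeR adjusted p = 9.75e-07 and 9.73e-06 paired, 0.547 and 0.0791 unpaired). Col1a1, Col1a2 and Fn1 fell by 0.10, 0.13 and 0.13 (edgeR adjusted p = 0.00107, 0.000123 and 0.00398 paired, 0.617, 0.707 and 0.279 unpaired). Of the pericyte markers Cspg4 and Mcam fell by 0.46 and 0.27 (edgeR adjusted p = 0.000356 and 0.000125 paired, 0.466 and 0.503 unpaired), and Kcnj8 rose by 0.65 (0.000213 paired, 0.405 unpaired). Markers given here with a fold change are those of these lists called in the paired fit. The part of these cells or genes in the fall of the contractile genes was not tested.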
